A study of Rattus norvegicus with 19 samples.

Results

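Chemokines and their receptors were read from left ventricles of rats, as the genes whose symbols begin with Ccl, Cxcl, Cx3cl, Xcl, Ccr, Cxcr, Cx3cr, Xcr or Ackr followed by a digit. There were 53 such genes among the 17455 gene symbols in the count files, 34 ligands and 19 receptors, and 42 of the 53 were among the 12388 genes that passed the expression filter. The study asked how empagliflozin (EMPA), a sodium-glucose cotransporter inhibitor, and pirfenidone (PFD), an antifibrotic drug, act together in rats with heart failure with preserved ejection fraction (HFpEF). Sprague-Dawley rats of a wild-type background were 24 weeks old at the start, and every library is labelled male. HFpEF was induced by L-NAME, a blocker of nitric oxide synthesis, dissolved in drinking water (0.5 g/L), and a diet with 60% of kilocalories from lard. The control 5w and HFpEF hearts were taken at week 5, the first without L-NAME and the second after both insults. The control 9w hearts were taken at week 9 without L-NAME. The other week 9 groups were HFpEF rats given phosphate-buffered saline (untreated), EMPA at 0.35 g/kg per day, PFD at 0.3 g/kg per day, or EMPA + PFD at these doses, by gavage for 4 weeks. EMPA and PFD had 2 libraries each and the other 5 groups had 3, which makes 19 libraries with total counts from 7430539 to 13017754.

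Chemokines are small secreted proteins that guide leukocytes along gradients, and they are named by the spacing of their first cysteines (CC, CXC, CX3C and XC). They act on G protein-coupled receptors, while the atypical receptors of the ACKR family bind chemokines without classical G protein signaling and take them up or shape their gradients. In the heart they are known for the recruitment of monocytes, T cells and neutrophils and for the CXCL12 system of vessels and stroma.

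Several libraries went against their labels or stood apart. Counts of the Y-linked Eif2s3y were 0 in 7 libraries labelled male (HFpEF replicates 1 and 3, all 3 of untreated and both of PFD) and between 613 and 1321 in the remaining 12. RT1-CE16, a class I histocompatibility gene, had 308 to 922 counts in 11 libraries, while EMPA and the 6 libraries of week 5 had at most 3. Therefore the Y-linked counts and the group cannot be told apart where untreated was compared with control 9w, EMPA or EMPA + PFD, and the RT1-CE16 counts and the week cannot be told apart where week 9 groups with these counts were compared with week 5 groups. In EMPA against untreated the counts of both genes and the group cannot be told apart. Control 5w replicate 1 differed from replicates 2 and 3 by a chi-square of 181.0 and 139 per gene, while replicates 2 and 3 differed from each other by 6.90. Untreated replicate 2 differed from replicates 1 and 3 by 169.8 and 138.7, and HFpEF replicate 1 differed from replicates 2 and 3 by 107.1 and 82.5. The summed level of 10 ventricular cardiomyocyte markers was 92948, 38233 and 42910.0 CPM in control 5w and 13232, 26858 and 39240.5 CPM in HFpEF, so cardiomyocytes were present in each. The sum does not settle the chamber. At week 9 it was 40251, 48066 and 43108 CPM in control 9w and 79449, 21253 and 67768 CPM in untreated. The 6 atrial markers summed to 6292, 798 and 25874 CPM in control 9w and 1241, 16175 and 1706 CPM in untreated, so that control 9w replicate 3 and untreated replicate 2 stood far above the others of their groups. Control 9w replicate 1 was also high in single atrial genes, with 1387 counts of Sln and 2702 of Myl4 against 8 and 24 in replicate 2, and it was kept where the 2 highest were left out. Of the ventricular list, Myl2 was at 20791, 2730 and 17844 counts in untreated and Myl3 at 52998, 6081 and 50228. Both were thus far lower in untreated replicate 2. In control 9w Myl2 was at 7815, 11504 and 6251 counts and Myl3 at 25337, 31563 and 23995. Of 4 tested erythroid markers, Hbb, Hbb-bs and Alas2 were called lower in untreated than in control 9w (log2 fold change −2.65, −3.07 and −2.92), with 12444, 13725 and 10801 counts of Hbb in control 9w and 2020, 2100 and 2648 in untreated. The same 3 were called lower in EMPA + PFD than in control 9w, and all 4 lower in untreated than in HFpEF, where 24 genes were called in all. Of the 16 T and NK cell markers only Cd3e was called in untreated against control 9w, and it was higher (edgeR adjusted p = 0.0396, with 10, 4 and 10 counts in control 9w and 64, 66 and 28 in untreated). No marker of the other cell types was called in untreated against control 9w. The part of blood or of T cells in the chemokine levels was not tested. In bulk tissue, fewer cells of a type and less RNA per cell cannot be told apart.

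Levels are CPM, counts scaled by sequencing depth and TMM factors, not corrected for gene length, so they are compared between libraries and not between genes. A gene was called where its p from the quasi-likelihood test of edgeR, adjusted by Benjamini-Hochberg over all 12388 genes (the edgeR adjusted p below), was under 0.05 and the absolute log2 fold change was at least 1. The 53 genes together took up 900, 890.7 and 807.1 CPM in control 5w and 2154.6, 1766.2 and 1782.4 CPM in HFpEF. They took up 1321.8, 1348.5 and 1126.4 CPM in control 9w, 1740.8, 1612 and 1685.1 CPM in untreated and 1055, 664.4 and 922.5 CPM in EMPA + PFD. Every HFpEF library thus lay above every control 5w library and every untreated library above control 9w and EMPA + PFD. Much of this sum was Cxcl12, with 19.6% of the counts of the 53 genes in HFpEF replicate 1 and 56.2% in EMPA replicate 2 as the lowest and highest shares.

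In HFpEF against control 5w, 11 of the 42 tested chemokine and receptor genes were called, where 8.69% of all tested genes were called. Of these, 10 were higher (Ccl4, Ccl5, Ccl19, Ccl21, Cxcl1, Cxcl2, Cxcl12, Cxcl14, Cxcr6 and Ackr3; 4.28% of all genes were called higher) and Ccl1 was lower (4.41% of all genes were called lower). In the control hearts, week 9 against week 5, 15 of 42 were called (14.7% of all genes). Ccl5, Cxcl12, Cxcl14, Cxcr5 and Ackr3 were higher at week 9, 5 of 42 against 7.46% of all genes. At week 9, 10 of 42 were lower, against 7.21% of all genes, among them Ccl2, Ccl6, Ccl12, Ccl22, Cxcl16, Cxcr4, Cx3cr1, Xcr1 and Ackr2. These 2 comparisons share the control 5w libraries. The median log2 fold change of the 42 genes was 0.55 in HFpEF against control 5w and −0.29 in the controls of week 9 against week 5, where the medians of all genes were 0.02 and −0.04. With HFpEF replicate 2, the HFpEF library with Y-linked counts, as the only HFpEF library and its spread assumed to be that of the other groups, 4 genes were called in HFpEF, namely Ackr3, Ccl5 and Cxcl12 of the 11 and Ccl20. In a fit to the 6 control 5w and HFpEF libraries alone, 4 of the 11 were called (Ackr3, Ccl5, Cxcl14 and Cxcr6), with 460 of all genes. DESeq2 called 13 in HFpEF, the 11 and Cxcl11 and Cxcr3, with 1271 of all genes. The count was 5 without HFpEF replicate 1 or control 5w replicate 3, 6 without control 5w replicate 1 or 2, and 7 without HFpEF replicate 3, while the count of all genes, 1076, ranged from 730.0 to 1228 with 1 library left out.

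At week 9, in untreated against control 9w, 1 of 42 was called, Ccl22, which was higher (0.912% of all genes were called, 0.339% higher). The median log2 fold change of the 42 was 0.71, with 31 above 0, against 0.01 over all genes, and 14 of the 42 had an unadjusted p under 0.05, against 18.2% of all genes. DESeq2 called 6 of them in this comparison (Ccl22, Ackr2, Ccl2, Ccl20, Cx3cl1 and Cxcr6). Leaving out each of control 9w replicates 1, 2 and 3 or untreated replicates 1 and 3 left 0 called by edgeR, and leaving out untreated replicate 2 gave 3 (Ccl22, Ackr2 and Cxcl11). The count was also 3 without HFpEF replicate 2 or EMPA + PFD replicate 1, and 2 without HFpEF replicate 1, EMPA + PFD replicate 2 or EMPA + PFD replicate 3. The count of all genes, 113, moved as well, to 21, 7 and 118 without control 9w replicates 1, 2 and 3, 14 and 28 without untreated replicates 1 and 3, and 413 without untreated replicate 2. From HFpEF at week 5 to untreated at week 9, edgeR called 0 of 42 (0.194% of all genes), 9 had an unadjusted p under 0.05 (22.7% of all genes did) and DESeq2 called 5 (Ccl1, Ccl4, Ccl9, Ccl21 and Cxcl11). Without untreated replicate 2 edgeR called 4 there (Ccl1, Ccl9, Cxcl11 and Ccr1), 2 without HFpEF replicate 2 and 1 without control 5w replicate 1, where the count of all genes went from 24 to 933, 260.0 and 181 in this order.

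With EMPA + PFD against untreated, 4 of 42 were called (3.82% of all genes) and all 4 were lower: Cxcl12, Cxcl16, Cx3cl1 and Ackr2 (1.48% of all genes were called lower). The median log2 fold change of the 42 was −0.67, with 30 below 0, against −0.03 over all genes. DESeq2 called 8, the same 4 and Ccl2, Ccl6, Ccl19 and Cxcr4. Cell type markers called lower by edgeR in this comparison were Myl4 and Sln (atrial), Egfl7 (endothelial) and Siglec5 (eosinophil and mast cell). Ryr2 (ventricular cardiomyocyte) and Slc4a1 (erythroid, log2 fold change 3.74, edgeR adjusted p = 0.00893) were called higher. The part of these cells in the chemokine levels was not tested. No gene of the 42 was called by edgeR when untreated replicate 3 or EMPA + PFD replicate 2 was left out, 1 without untreated replicate 2, 2 without EMPA + PFD replicate 3 and 8 without EMPA + PFD replicate 1. In the same fits the count of all genes, 473, was 210.0, 59, 83, 159 and 793, and it was 910.0 without untreated replicate 1. In a fit to the 6 untreated and EMPA + PFD libraries alone edgeR called 0 of them, against 5 of all genes, and 11 of the 42 had an unadjusted p under 0.05 in the fit to all 19 libraries, where 32.7% of all genes did. For EMPA against untreated edgeR called 0 of 42 (0.0404% of all genes), with 6 at an unadjusted p under 0.05 (8.63% of all genes) and 0 by DESeq2. For PFD against untreated it called 0 of 42 (0.00807% of all genes), with 4 at an unadjusted p under 0.05 (5.21% of all genes) and 0 by DESeq2.

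EMPA + PFD against control 9w had 4 of 42 called (12.1% of all genes), Ccl22, Cxcl2 and Cxcl14 higher (7.15% of all genes) and Ccl1 lower (4.92% of all genes). Beside the erythroid markers above, 5 of 10 endothelial markers were called lower there (Cdh5, Egfl7, Emcn, Pecam1 and Tie1). So were 3 of 6 atrial markers (Myl4, Myl7 and Sln), Clec9a (dendritic cell) and Wt1 (mesothelial). Called higher were 3 of 10 ventricular cardiomyocyte markers (Actc1, Pln and Ryr2) and Prox1 (lymphatic). The interaction of the drugs, which asks whether EMPA acted differently with PFD than without, had 0 of 42 called by edgeR (0.00807% of all genes), 2 at an unadjusted p under 0.05 (9.13% of all genes) and 0 called by DESeq2. The difference between the effects of disease at weeks 9 and 5 was called for 5 of 42, Ackr3, Ccl5, Ccl21, Cxcl11 and Cxcr5 (12% of all genes), and for 3 without control 9w replicate 2 or untreated replicates 1 or 3, where all genes went from 1489 to 975, 877 and 1115. Over all 7 groups at once, 21 of 42 differed at an edgeR adjusted p under 0.05, as did 50.3% of all genes. Comparisons that share untreated or control 9w libraries are given below side by side and not set against each other.

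**Figure D1:**
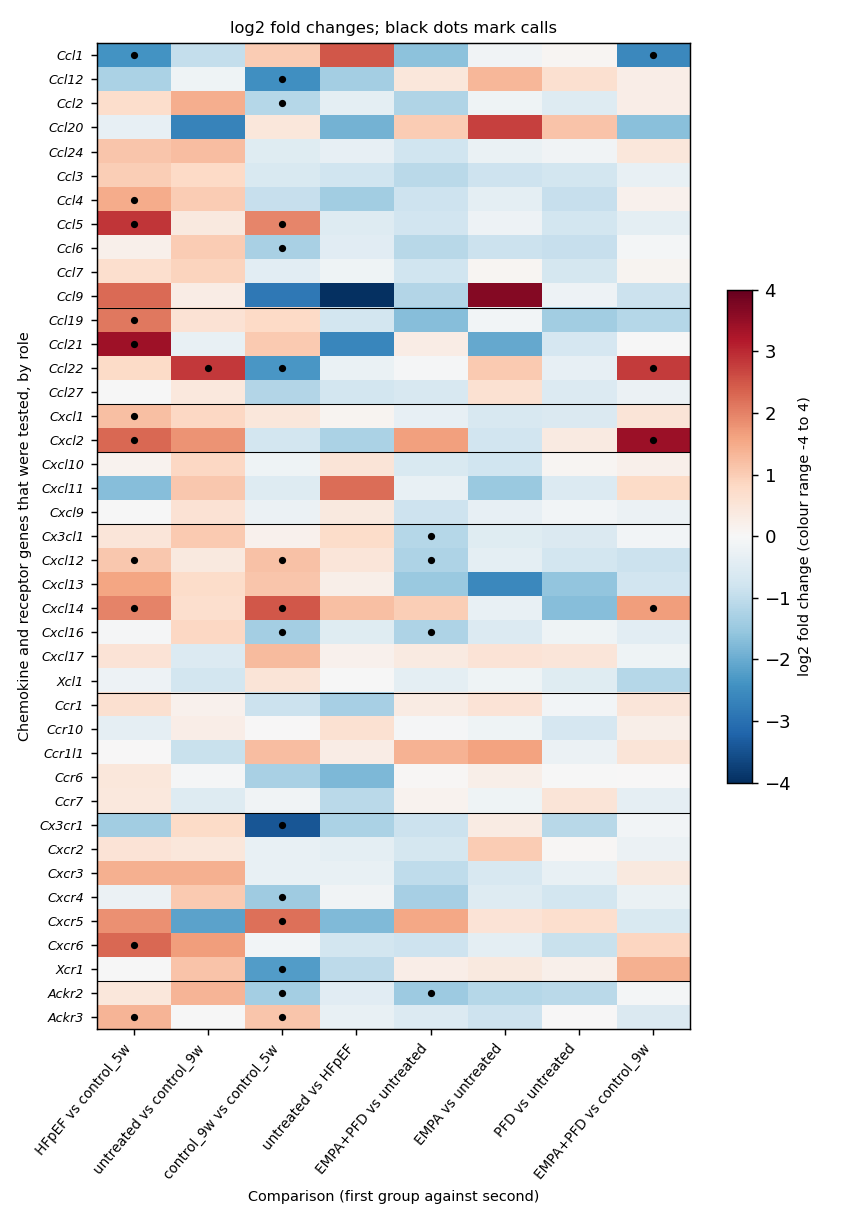
log2 fold changes of 41 of the 42 tested chemokine and receptor genes (grouped by role) in 8 comparisons, with black dots where a gene was called; colors stop at a log2 fold change of 4 in either direction. HFpEF against control 5w has 10 dots in red and 1 in blue, and EMPA + PFD against untreated has 4 dots, all in blue.

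Among the inflammatory CC ligands, Ccl5 (RANTES), which draws T cells and monocytes, had the clearest difference at week 5. Ccl5 was at 5.94, 4.42 and 8.04 CPM in control 5w and at 43.8, 49.1 and 41.5 CPM in HFpEF. The HFpEF libraries lay within a narrow range, far above every control. In HFpEF against control 5w the difference was called (log2 fold change 2.87, standard error 0.45, edgeR adjusted p = 0.00138), and it was called when each of the 19 libraries was left out. In control 9w Ccl5 was at 28.8, 23.6 and 19.1 CPM and in untreated at 39.4, 33.8 and 19.8 CPM, with 41.1 and 13.1 CPM with EMPA, 10.7 and 26.5 CPM with PFD and 21.2, 10.5 and 22.8 CPM with EMPA + PFD. Control 9w lay above control 5w in every library (log2 fold change 1.96, standard error 0.44, edgeR adjusted p = 0.00438), while untreated and control 9w overlapped (log2 fold change 0.38, standard error 0.41, edgeR adjusted p = 0.667). The disease effect of week 9 was smaller than that of week 5 (log2 fold change −2.49, standard error 0.60, edgeR adjusted p = 0.0121).

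Ccl4 and Ccl3 (MIP-1 beta and alpha) are neighbors on the chromosome and attract monocytes and T cells. Ccl4 was at 1.23, 2.95 and 1.99 CPM in control 5w and at 5.31, 6.33 and 5.80 CPM in HFpEF. No HFpEF library overlapped a control (log2 fold change 1.49, standard error 0.48, edgeR adjusted p = 0.0424), and the call was lost when each of control 5w replicates 1 and 3, HFpEF replicates 1, 2 and 3 and control 9w replicate 1 was left out in turn (edgeR adjusted p from 0.0566 to 0.128) and in a fit to the compared groups alone (edgeR adjusted p = 0.0559). Ccl4 was at 1.13, 1.35 and 0.798 CPM in the week 9 controls and at 2.95, 2.35 and 1.26 CPM in untreated, with 2.53 and 0.850 CPM with EMPA, 0.438 and 1.85 CPM with PFD and 1.18, 0.717 and 1.78 CPM with EMPA + PFD. Every other week 9 group overlapped control 9w. Ccl4 was not called in untreated or EMPA + PFD against control 9w, and EMPA and PFD alone were not tested against control 9w. Ccl3 had 3 to 66 counts over the 19 libraries, the highest in HFpEF replicate 1 and the lowest in PFD replicate 1, and no call.

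Ccl2 (MCP-1), the main ligand of the monocyte receptor CCR2, was lower in the week 9 than in the week 5 control hearts. Ccl2 was at 16.6, 20.9 and 18.9 CPM in control 5w and at 45.6, 20.9 and 26.2 CPM in HFpEF. Control 9w had 5.53, 7.62 and 12.5 CPM of Ccl2 and untreated 18.6, 23.5 and 29.2 CPM, with 17.2 and 24.5 CPM with EMPA, 16.1 and 16.8 CPM with PFD and 15.6, 3.83 and 11.2 CPM with EMPA + PFD. Every control 9w library lay below every control 5w library and below every untreated library. The fall between the controls was called (log2 fold change −1.13, standard error 0.41, edgeR adjusted p = 0.0451), but the call was lost when each of control 5w replicates 1, 2 and 3, HFpEF replicate 3, control 9w replicates 1 and 2, untreated replicate 3, EMPA replicates 1 and 2, PFD replicates 1 and 2 and EMPA + PFD replicate 3 was left out in turn (edgeR adjusted p from 0.0514 to 0.163). Untreated against control 9w was not called by edgeR (log2 fold change 1.47, standard error 0.41, edgeR adjusted p = 0.0767), nor was EMPA + PFD against untreated (log2 fold change −1.22, standard error 0.41, edgeR adjusted p = 0.0632), and DESeq2 called both. Ccl7 (MCP-3), the next gene to Ccl2, had 21 to 240 counts, highest in HFpEF replicate 1 and lowest in EMPA + PFD replicate 2, and was not called.

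Ccl12 (MCP-5), a further monocyte attractant, had few counts. Ccl12 was at 24, 50 and 52 counts in control 5w and at 23, 17 and 12 counts in HFpEF. At week 9 Ccl12 was at 10, 0 and 7 counts in control 9w and 6, 6 and 5 counts in untreated, with 6 and 16 counts with EMPA, 9 and 7 counts with PFD and 10, 2 and 8 counts with EMPA + PFD. Counts at week 9 were below those of every control 5w library in all 13 libraries. The fall from control 5w to control 9w was called (log2 fold change −2.45, standard error 0.65, edgeR adjusted p = 0.0103), also when each library was left out in turn, while HFpEF against control 5w was not (log2 fold change −1.26, standard error 0.58, edgeR adjusted p = 0.137).

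Ccl6, a macrophage product that binds Ccr1, followed the same order between the controls. Ccl6 was at 20.4, 46.4 and 39.2 CPM in control 5w and at 48.0, 33.3 and 39.8 CPM in HFpEF. In control 9w Ccl6 was at 13.8, 11.3 and 17.9 CPM and in untreated at 19.9, 45.9 and 22.0 CPM, with 22.0 and 10.8 CPM with EMPA, 13.8 and 17.5 CPM with PFD and 15.8, 9.80 and 15.3 CPM with EMPA + PFD. Control 5w replicate 1 was low among the controls of week 5, and untreated replicate 2 was high among the libraries of week 9. Control 9w lay below control 5w in every library (log2 fold change −1.30, standard error 0.37, edgeR adjusted p = 0.0145), and the call was lost when each of control 5w replicate 2 and control 9w replicate 2 was left out in turn (edgeR adjusted p from 0.0655 to 0.0672). Its neighbor Ccl9, also a ligand of Ccr1, was at 2, 24 and 17 counts in control 5w, 144, 8 and 63 counts in HFpEF, 1, 1 and 2 in control 9w, 0, 6 and 0 in untreated, 11 and 29 with EMPA, 1 and 2 with PFD and 0, 0 and 2 with EMPA + PFD. HFpEF replicate 1 stood out, and 11 week 9 libraries of the 13 had at most 6 counts. Ccl9 differed among the 7 groups (edgeR adjusted p = 0.00348) but was not called in HFpEF against control 5w (edgeR adjusted p = 0.0797) nor in untreated against HFpEF (edgeR adjusted p = 0.0658).

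Ccl1, a ligand of CCR8 on T cells, was the only one of the 42 called lower in HFpEF. Ccl1 was at 16, 5 and 7 counts in control 5w and at 0, 3 and 2 counts in HFpEF. Ccl1 was at 19, 12 and 13 counts in the week 9 controls and at 11, 7 and 8 counts in untreated, with 8 and 4 counts with EMPA, 8 and 9 counts with PFD and 2, 3 and 2 counts with EMPA + PFD. HFpEF and EMPA + PFD had at most 3 counts in every library, and no control library had under 5. Summed over libraries and scaled by library size, the counts of control 5w exceeded those of HFpEF by a ratio of 5.59 (95% counting interval 2.13 to 18.6), and those of control 9w exceeded EMPA + PFD by 6.14 (95% counting interval 2.74 to 16.1). The edgeR adjusted p was 0.0306 for the first and 0.0098 for the second. The first call was lost when each of control 5w replicate 1 and HFpEF replicates 1 and 3 was left out in turn (edgeR adjusted p from 0.0572 to 0.142) and in a fit to the compared groups alone, where the gene did not pass the filter, and the second held with each library left out in turn. Ccl20, which attracts cells with Ccr6, had 0 to 13 counts, and Ccl24 (eotaxin-2) had 25 to 220. Neither was called by edgeR with all libraries, and Ccl20 was called by DESeq2 in untreated against control 9w.

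Ccl21 and Ccl19 are the ligands of Ccr7, made by lymphatic endothelium and lymphoid stroma and known for bringing dendritic cells and T cells to lymph nodes. Ccl21 was at 26.1, 81.8 and 19.2 CPM in control 5w and at 865, 174 and 283 CPM in HFpEF. HFpEF replicate 1 alone held 12052 counts of Ccl21, and all 3 HFpEF libraries were above all controls of week 5. Control 9w had 91.1, 107 and 67.0 CPM of Ccl21 and untreated 124, 39.6 and 52.9 CPM, with 15.0 and 20.0 CPM with EMPA, 25.7 and 65.3 CPM with PFD and 54.6, 62.2 and 147 CPM with EMPA + PFD. HFpEF was higher than control 5w (log2 fold change 3.38, standard error 0.71, edgeR adjusted p = 0.00722; edgeR adjusted p = 0.0638 in a fit to the compared groups alone), and without HFpEF replicate 1 the log2 fold change was 2.43 (edgeR adjusted p = 0.0238). With HFpEF replicate 2 as the only HFpEF library it was 2.03 and not called (edgeR adjusted p = 0.0967). Untreated and control 9w overlapped (log2 fold change −0.29, standard error 0.66, edgeR adjusted p = 0.85), and the difference between the weeks was called (log2 fold change −3.67, standard error 0.95, edgeR adjusted p = 0.0163). With HFpEF replicate 2 as the only HFpEF library that difference was −2.32 and not called (edgeR adjusted p = 0.113).

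Of 4 lymphatic endothelial markers, with Flt4 the most abundant over the 19 libraries, Flt4 and Reln were called higher and Prox1 lower in HFpEF against control 5w. Their summed level was 71.7, 89.5 and 78.9 CPM in control 5w, 246, 78.6 and 143 CPM in HFpEF, 85.8, 84.6 and 92.7 CPM in control 9w and 80.5, 98.0 and 70.7 CPM in untreated. It was 66.2 and 71.8 CPM with EMPA, 65.2 and 84.8 CPM with PFD and 83.3, 80.0 and 96.4 CPM with EMPA + PFD, and none of the 4 markers had a library at 0. HFpEF replicate 1, the library with the most Ccl21, thus also had the highest sum of these markers. The part of these cells in the level of Ccl21 was not tested.

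Ccl19 was at 3.11, 3.72 and 3.42 CPM in control 5w and at 25.7, 9.90 and 8.66 CPM in HFpEF. HFpEF replicate 1 was again the highest, and no HFpEF library overlapped a control. At week 9 Ccl19 was at 5.75, 4.92 and 7.18 CPM in control 9w and 5.59, 16.9 and 3.79 CPM in untreated, with 2.26 and 14.1 CPM with EMPA, 3.18 and 3.50 CPM with PFD and 2.48, 1.91 and 3.66 CPM with EMPA + PFD. Untreated replicate 2 and EMPA replicate 2 stood above the rest of their groups. Ccl19 was called in HFpEF against control 5w (log2 fold change 2.11, standard error 0.62, edgeR adjusted p = 0.0284), and the call was lost when each of control 5w replicates 1, 2 and 3 and HFpEF replicate 1 was left out in turn (edgeR adjusted p from 0.0644 to 0.128) and in a fit to the compared groups alone (edgeR adjusted p = 0.0502). EMPA + PFD against untreated was called by DESeq2 and not by edgeR (log2 fold change −1.71, standard error 0.64, edgeR adjusted p = 0.0842).

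Ccl22, a dendritic cell and macrophage product that attracts T cells with Ccr4, was nearly missing from the week 9 controls. Ccl22 was at 12, 22 and 8 counts in control 5w and at 43, 11 and 20 counts in HFpEF. In control 9w Ccl22 was at 3, 1 and 2 counts and in untreated at 14, 27 and 12 counts, with 19 and 36 counts with EMPA, 11 and 14 counts with PFD and 15, 14 and 13 counts with EMPA + PFD. Each control 9w library had at most 3 counts and every other library had at least 8. Summed and scaled by library size, the counts of untreated exceeded those of control 9w by a ratio of 7.63 (95% counting interval 3.28 to 21.7). The counts of control 5w exceeded those of control 9w by 5.25 (95% counting interval 2.22 to 15.1), and the counts of EMPA + PFD exceeded those of control 9w by 7.17 (95% counting interval 3.03 to 20.6). The edgeR adjusted p was 0.0247, 0.00672 and 0.00275 in this order. The call for untreated was lost when each of control 9w replicates 1, 2 and 3 and untreated replicates 1 and 3 was left out in turn (edgeR adjusted p from 0.0508 to 0.117) and in a fit to the compared groups alone (edgeR adjusted p = 0.0561), and the other 2 held with each library left out in turn, that against control 5w being filtered out in a fit to the compared groups alone. Without both libraries high in atrial genes the call for untreated was lost as well (edgeR adjusted p = 0.0531). Ccl27, a skin chemokine, had 10 to 97 counts and no call, and its gene overlaps Il11ra1, so its counts are uncertain.

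**Figure D2:**
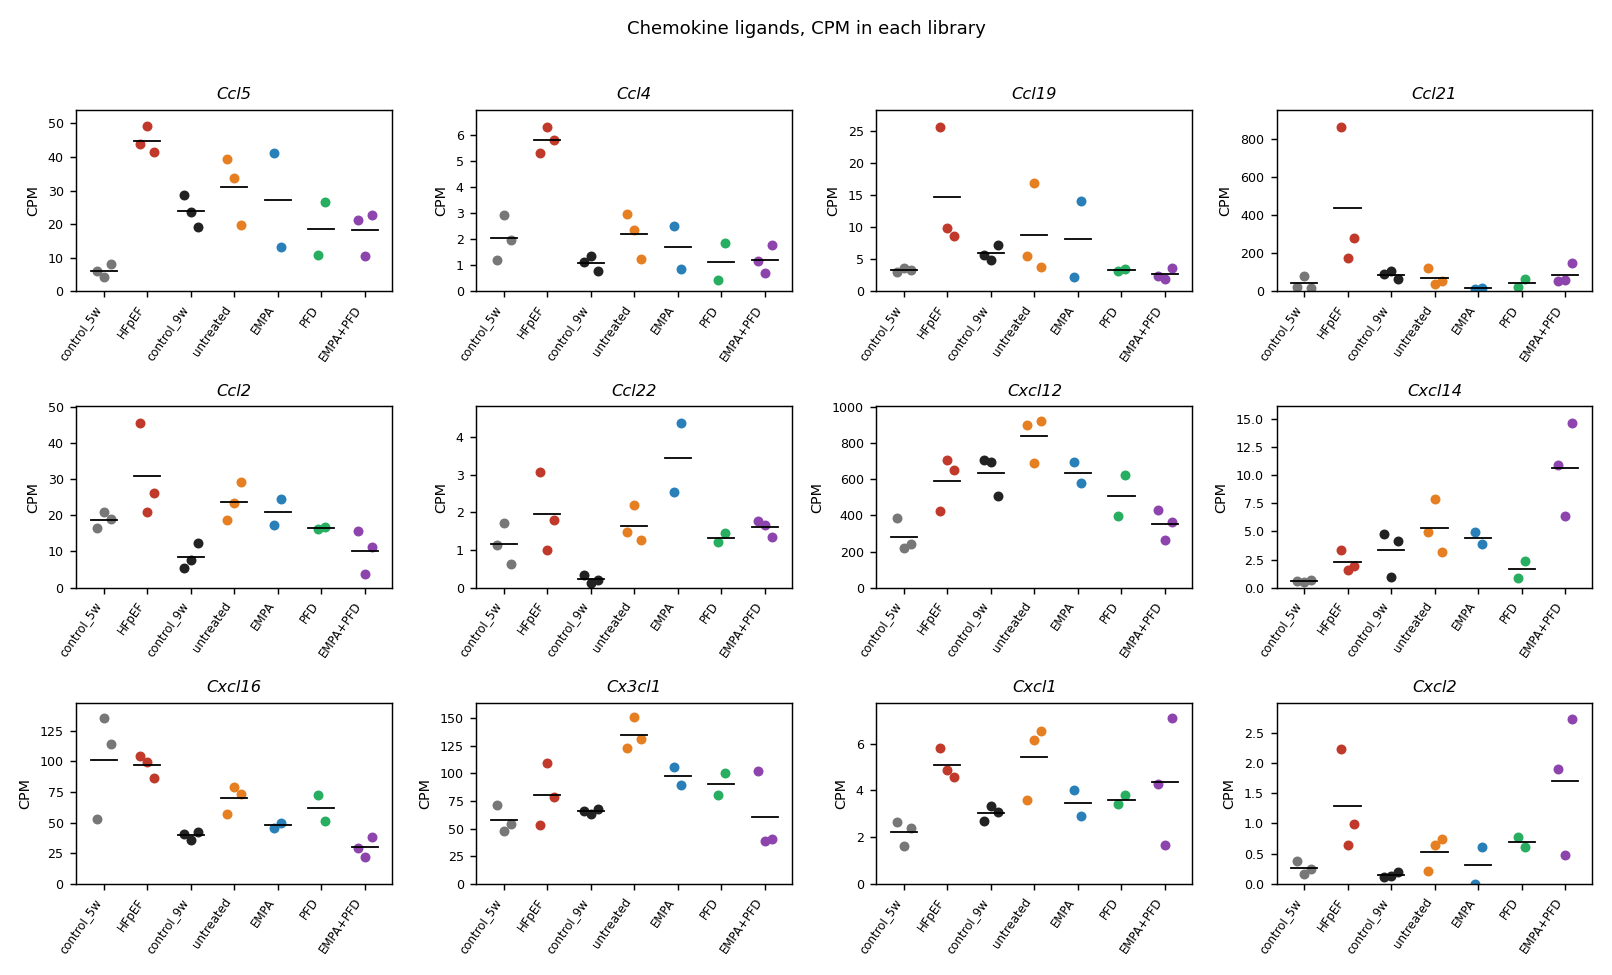
CPM of 12 chemokine ligands in each library by group; points are libraries and bars are group means over 3 libraries (2 for EMPA and PFD), on linear axes from 0. In Ccl5 the HFpEF libraries sit between 41.5 and 49.1 CPM and the control 5w libraries between 4.42 and 8.04 CPM, and in Ccl21 HFpEF replicate 1 stands alone at 865 CPM.

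Cxcl1 and Cxcl2, neighboring genes whose products attract neutrophils through Cxcr2, were both higher in HFpEF. Cxcl1 was at 28, 21 and 30 counts in control 5w and at 81, 53 and 51 counts in HFpEF. Cxcl1 was at 24, 27 and 31 counts in the week 9 controls and at 34, 76 and 62 counts in untreated, with 30 and 24 counts with EMPA, 31 and 37 counts with PFD and 36, 14 and 68 counts with EMPA + PFD. The HFpEF libraries lay above all controls of week 5 (log2 fold change 1.20, standard error 0.39, edgeR adjusted p = 0.0424), but the call was lost when each of control 5w replicates 1, 2 and 3, HFpEF replicates 1, 2 and 3, control 9w replicates 1, 2 and 3, EMPA replicates 1 and 2 and PFD replicates 1 and 2 was left out in turn (edgeR adjusted p from 0.0503 to 0.128) and in a fit to the compared groups alone (edgeR adjusted p = 0.0611). Cxcl2 was at 4, 2 and 3 counts in control 5w and at 31, 7 and 11 counts in HFpEF. Control 9w had 1, 1 and 2 counts of Cxcl2 and untreated 2, 8 and 7 counts, with 0 and 5 counts with EMPA, 7 and 6 counts with PFD and 16, 4 and 26 counts with EMPA + PFD. HFpEF did not overlap control 5w, and EMPA + PFD did not overlap control 9w. Against control 5w the call (log2 fold change 2.31, standard error 0.77, edgeR adjusted p = 0.0455) was lost when each of control 5w replicates 1, 2 and 3, HFpEF replicates 1 and 3, control 9w replicates 1, 2 and 3, untreated replicate 3, PFD replicates 1 and 2 and EMPA + PFD replicate 1 was left out in turn (edgeR adjusted p from 0.0537 to 0.186) and in a fit to the compared groups alone, where the gene did not pass the filter. With every gene that had a count tested, the edgeR adjusted p was 0.0508 for Cxcl1 and 0.0564 for Cxcl2. Summed and scaled counts of EMPA + PFD exceeded those of control 9w by a ratio of 11.8 (95% counting interval 4.30 to 45.0), with an edgeR adjusted p of 0.00869 that stayed under 0.05 with each library left out in turn (filtered out in a fit to the compared groups alone). The 10 neutrophil markers, led by S100a9, summed to 13.3, 18.3 and 24.0 CPM in control 5w and 33.4, 20.4 and 28.2 CPM in HFpEF and, at week 9, to 19.9, 25.9 and 15.4 CPM in control 9w and 5.10, 14.3 and 13.2 CPM in EMPA + PFD. None of the 6 that were tested was called by edgeR in HFpEF against control 5w, Mpo and Elane had at most 3 counts in every library, and Camp, Ngp and Retnlg had at least 1 library at 0.

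The interferon-induced ligands of Cxcr3, which attract T cells, were Cxcl9, Cxcl10 and Cxcl11. Cxcl11 was at 10.4, 6.52 and 4.14 CPM in control 5w and at 1.44, 1.93 and 3.13 CPM in HFpEF. At week 9 Cxcl11 was at 4.40, 6.52 and 3.79 CPM in control 9w and 13.3, 1.79 and 15.8 CPM in untreated, with 5.46 and 1.82 CPM with EMPA, 6.24 and 7.61 CPM with PFD and 9.70, 5.26 and 9.82 CPM with EMPA + PFD. At week 5 every HFpEF library was below every control, while at week 9 untreated replicates 1 and 3 were the highest and untreated replicate 2 was the lowest. Neither HFpEF against control 5w (log2 fold change −1.70, standard error 0.63, edgeR adjusted p = 0.0701) nor untreated against control 9w (log2 fold change 1.07, standard error 0.61, edgeR adjusted p = 0.378) was called by edgeR, and DESeq2 called the first. The difference between these effects was called (log2 fold change 2.76, standard error 0.88, edgeR adjusted p = 0.0387), and it was lost when each of control 5w replicates 1 and 2, HFpEF replicates 1 and 2, control 9w replicates 1, 2 and 3 and untreated replicates 1 and 3 was left out in turn (edgeR adjusted p from 0.0563 to 0.0991) and in a fit to the compared groups alone (edgeR adjusted p = 0.0709). With HFpEF replicate 2 as the only HFpEF library it was not called (edgeR adjusted p = 0.112). Cxcl9 had 62 to 259 counts and Cxcl10 had 25 to 116, with no call. Their genes lie side by side with Cxcl11, and Cxcl10 and Cxcl11 overlap Art3, so their counts are uncertain.

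Cxcl12 (SDF-1), which holds cells with Cxcr4 in tissue and is made by endothelium and stroma, was among the genes called in 3 comparisons. Cxcl12 was at 384, 217 and 243 CPM in control 5w and at 423, 705 and 649 CPM in HFpEF. Every HFpEF library was above every control 5w library (log2 fold change 1.08, standard error 0.27, edgeR adjusted p = 0.0152), and the call was lost when each of control 5w replicates 2 and 3 and HFpEF replicate 2 was left out in turn (edgeR adjusted p from 0.0549 to 0.0566) and in a fit to the compared groups alone (edgeR adjusted p = 0.0917). In control 9w Cxcl12 was at 705, 694 and 509 CPM and in untreated at 901, 692 and 919 CPM, with 696 and 578 CPM with EMPA, 396 and 621 CPM with PFD and 429.6, 264 and 363 CPM with EMPA + PFD. Control 9w was above control 5w (log2 fold change 1.18, standard error 0.27, edgeR adjusted p = 0.00497). EMPA + PFD was below untreated in all 3 libraries (log2 fold change −1.25, standard error 0.27, edgeR adjusted p = 0.0156), and the call was lost when each of untreated replicate 3 and EMPA + PFD replicates 2 and 3 was left out in turn (edgeR adjusted p from 0.0513 to 0.0927) and in a fit to the compared groups alone (edgeR adjusted p = 0.0898). Of the single drugs, EMPA had a log2 fold change of −0.40 and PFD of −0.72 against untreated, and neither was called. Without both libraries high in atrial genes, a setting chosen after seeing the data, the log2 fold change of EMPA + PFD was −1.37 (edgeR adjusted p = 0.0443), and the calls of Cxcl16, Cx3cl1 and Ackr2 were lost (edgeR adjusted p = 0.0884, 0.134 and 0.067).

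Of 10 endothelial markers, with Vwf the most abundant over the 19 libraries, 4 were called higher in HFpEF (Cldn5, Egfl7, Esam and Vwf), 8 higher in control 9w than in control 5w and Egfl7 lower with EMPA + PFD. Their summed level was 2027, 1637 and 1874 CPM in control 5w, 1982, 4178 and 3382 CPM in HFpEF, 4498, 4781 and 3871 CPM in control 9w and 3483, 4034 and 3829.8 CPM in untreated. It was 3483 and 2744 CPM with EMPA, 3036 and 3119.6 CPM with PFD and 2506, 2171 and 2166 CPM with EMPA + PFD, and no marker had a library at 0. HFpEF replicates 2 and 3 were above control 5w, HFpEF replicate 1 overlapped with it, and EMPA + PFD was below untreated in every library. The part of these cells in the level of Cxcl12 was not tested.

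Cxcl16 and Cx3cl1 (fractalkine) are made as membrane-bound proteins that are cut off by proteases, and they bind Cxcr6 and Cx3cr1. Cxcl16 was at 53.2, 135 and 115 CPM in control 5w and at 105, 99.2 and 86.6 CPM in HFpEF. Cxcl16 was at 41.1, 36.0 and 42.0 CPM in the week 9 controls and at 56.9, 79.3 and 73.4 CPM in untreated, with 45.3 and 50.0 CPM with EMPA, 72.6 and 50.9 CPM with PFD and 29.2, 21.5 and 38.3 CPM with EMPA + PFD. Control 5w replicate 1 was well below the other controls of week 5 and HFpEF overlapped them, whereas control 9w lay below every one of them (log2 fold change −1.35, standard error 0.28, edgeR adjusted p = 0.00269). EMPA + PFD lay below untreated (log2 fold change −1.23, standard error 0.28, edgeR adjusted p = 0.0182), and the call was lost when each of untreated replicates 2 and 3 and EMPA + PFD replicate 2 was left out in turn (edgeR adjusted p from 0.0524 to 0.101) and in a fit to the compared groups alone (edgeR adjusted p = 0.0862). Cx3cl1 was at 71.2, 48.2 and 54.3 CPM in control 5w and at 53.1, 109 and 78.5 CPM in HFpEF. Control 9w had 65.8, 63.0 and 67.6 CPM of Cx3cl1 and untreated 123, 150.4 and 131 CPM, with 105 and 88.9 CPM with EMPA, 80.6 and 99.9 CPM with PFD and 102, 39.1 and 41.0 CPM with EMPA + PFD. Untreated was the highest group, with all 3 libraries above those of every other group. EMPA + PFD replicate 1 was close to EMPA and PFD while replicates 2 and 3 were far lower. Cx3cl1 was lower with EMPA + PFD (log2 fold change −1.15, standard error 0.32, edgeR adjusted p = 0.0338), with a log2 fold change of −1.73 without EMPA + PFD replicate 1, and the call was lost when each of untreated replicates 2 and 3 and EMPA + PFD replicates 2 and 3 was left out in turn (edgeR adjusted p from 0.0697 to 0.158) and in a fit to the compared groups alone (edgeR adjusted p = 0.125). Untreated against control 9w was called by DESeq2 and not by edgeR (log2 fold change 1.04, standard error 0.32, edgeR adjusted p = 0.0948).

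Cxcl14, a chemokine of epithelia and stroma whose receptor is not settled, was low in the week 5 controls. Cxcl14 was at 6, 7 and 8 counts in control 5w and at 47, 17 and 22 counts in HFpEF. At week 9 Cxcl14 was at 42, 8 and 42 counts in control 9w and 47, 97 and 30 counts in untreated, with 37 and 32 counts with EMPA, 8 and 23 counts with PFD and 92, 53 and 140 counts with EMPA + PFD. Control 5w had at most 8 counts in a library, and EMPA + PFD had 2 of the 3 highest values of any library, untreated replicate 2 having the other. Cxcl14 was higher in HFpEF than in control 5w (log2 fold change 1.97, standard error 0.59, edgeR adjusted p = 0.031), and the call was lost when each of control 5w replicates 1, 2 and 3 and HFpEF replicate 1 was left out in turn (edgeR adjusted p from 0.0725 to 0.114). It was higher in control 9w than in control 5w (log2 fold change 2.49, standard error 0.59, edgeR adjusted p = 0.00579) and in EMPA + PFD than in control 9w (log2 fold change 1.67, standard error 0.51, edgeR adjusted p = 0.0213), the latter call being lost when each of control 9w replicate 2 and EMPA + PFD replicate 3 was left out in turn (edgeR adjusted p from 0.0712 to 0.0805). In control 9w replicates 1 and 3, which were higher in Sln, had 4.74 and 4.19 CPM of Cxcl14, and replicate 2 had 0.984 CPM. Every control 9w library thus lay above control 5w, which had 0.565, 0.543 and 0.637 CPM, replicate 2 by the least. The call between the controls held with each library left out in turn and was not tested without replicates 1 and 3 together. EMPA + PFD against untreated was not called (log2 fold change 0.99, standard error 0.49, edgeR adjusted p = 0.176). Cxcl13, which attracts B cells with Cxcr5, had 31 to 1166 counts, the highest in untreated replicate 2, and Cxcl17 and Xcl1 had 5 to 25 and 3 to 42. None of these was called.

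Among the CC receptors, Ccr1, which binds Ccl3, Ccl5 and Ccl6, had 7 to 132 counts, Ccr10 13 to 44, Ccr7 3 to 43, Ccr6 0 to 16 and the Ccr1-like gene Ccr1l1 0 to 16. None of these 5 was called in any comparison, and HFpEF replicate 1 had the highest counts of Ccr1, Ccr6 and Ccr7.

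Cx3cr1, the fractalkine receptor of tissue macrophages and monocytes, had the largest called fall of the 42 tested genes between the controls. Cx3cr1 was at 17, 250 and 201 counts in control 5w and at 108, 28 and 41 counts in HFpEF. In control 9w Cx3cr1 was at 11, 2 and 19 counts and in untreated at 17, 30 and 15 counts, with 14 and 25 counts with EMPA, 9 and 8 counts with PFD and 20, 2 and 6 counts with EMPA + PFD. Control 5w replicates 2 and 3 stood above every other library, and replicate 1 of that group overlapped control 9w. Control 9w was lower (log2 fold change −3.41, standard error 0.85, edgeR adjusted p = 0.00749), with a log2 fold change of −3.92 (edgeR adjusted p = 0.00131) without control 5w replicate 1. The call held with each library left out in turn. HFpEF against control 5w was not called (log2 fold change −1.40, standard error 0.75, edgeR adjusted p = 0.192).

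The 16 macrophage and monocyte markers, led by Lyz2, moved with these falls: between the controls 10 were called lower and Lyve1 was called higher. Their summed level was 894, 2615 and 2138 CPM in control 5w, 4008, 937 and 2363 CPM in HFpEF, 584, 460.1 and 724 CPM in control 9w and 534, 1197 and 625 CPM in untreated. It was 724 and 679 CPM with EMPA, 743 and 538 CPM with PFD and 408, 447 and 671 CPM with EMPA + PFD, and no marker had a library at 0. Control 5w replicates 2 and 3 and HFpEF replicates 1 and 3 were high, and control 5w replicate 1 was low, as it was for Cx3cr1 and Cxcl16. In the same comparison 8 of 10 fibroblast markers were called lower and 8 of 10 endothelial markers higher. The part of these cells in the lower receptor and ligand levels was not tested.

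Cxcr4, the receptor of Cxcl12, was lower in the week 9 than in the week 5 controls. Cxcr4 was at 52.7, 62.7 and 67.0 CPM in control 5w and at 50.5, 57.0 and 47.2 CPM in HFpEF. Cxcr4 was at 22.3, 29.5 and 16.0 CPM in the week 9 controls and at 44.2, 45.7 and 50.7 CPM in untreated, with 42.3 and 23.1 CPM with EMPA, 21.6 and 34.2 CPM with PFD and 36.9, 8.85 and 10.3 CPM with EMPA + PFD. Control 9w lay below control 5w (log2 fold change −1.43, standard error 0.41, edgeR adjusted p = 0.0162), and the call was lost when each of control 9w replicates 1 and 3 was left out in turn (edgeR adjusted p from 0.0513 to 0.0602) and without both libraries high in atrial genes (edgeR adjusted p = 0.0629). Untreated lay above control 9w and above EMPA + PFD without overlap, and neither was called, with log2 fold changes of 1.05 (edgeR adjusted p = 0.188) and −1.33 (edgeR adjusted p = 0.0506). EMPA + PFD replicate 1, at 36.9 CPM, stood apart from replicates 2 and 3, and without it both were called; without control 5w replicate 1 only the second was.

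Cxcr6, the Cxcl16 receptor of activated T cells and NKT cells, was higher in HFpEF. Cxcr6 was at 13, 53 and 32 counts in control 5w and at 259, 95 and 128 counts in HFpEF. Control 9w had 21, 19 and 26 counts of Cxcr6 and untreated 131, 75 and 35 counts, with 50 and 43 counts with EMPA, 20 and 61 counts with PFD and 53, 27 and 37 counts with EMPA + PFD. All HFpEF libraries exceeded all controls of week 5, with HFpEF replicate 1 the highest (log2 fold change 2.28, standard error 0.52, edgeR adjusted p = 0.0103), and the call held with each library left out in turn. With HFpEF replicate 2 as the only HFpEF library the log2 fold change was 1.71 and not called (edgeR adjusted p = 0.118). Cxcr3, the receptor of Cxcl9, Cxcl10 and Cxcl11, had 10 to 129 counts, the highest in HFpEF replicate 1, and was not called by edgeR (log2 fold change 1.42, standard error 0.53, edgeR adjusted p = 0.069) but was by DESeq2. Of 16 T and NK cell markers, 8 were called higher in HFpEF and none lower by edgeR; their summed level, with Cd4 the most abundant over the 19 libraries, was 93.0, 137 and 124 CPM in control 5w and 264, 133 and 194 CPM in HFpEF. At week 9 it was 108, 82.2 and 90.5 CPM in control 9w, 148, 149 and 86.9 CPM in untreated, 143 and 68.6 CPM with EMPA, 64.0 and 115 CPM with PFD and 106, 53.3 and 109.5 CPM with EMPA + PFD. Cd8b was the marker of this list with a library at 0. In control 9w against control 5w Cd2, Klrd1 and Ncr1 were called higher and Cd4 lower. Of 4 tested platelet markers, Gp1ba, Gp9 and Treml1 were called higher in HFpEF and higher in control 9w than in control 5w, as Ccl5 was, with 6, 11 and 7 counts of Treml1 in control 5w, 63, 36 and 21 in HFpEF and 46, 39 and 33 in control 9w. The part of T cells, NK cells or platelets in Ccl5, Ccl4 and Cxcr6 was not tested.

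Cxcr5, the Cxcl13 receptor of B cells and follicular helper T cells, was low throughout. Cxcr5 was at 3, 9 and 9 counts in control 5w and at 40, 7 and 30 counts in HFpEF. At week 9 Cxcr5 was at 25, 27 and 20 counts in control 9w and 6, 9 and 4 counts in untreated, with 3 and 11 counts with EMPA, 14 and 4 counts with PFD and 1, 24 and 22 counts with EMPA + PFD. Control 9w exceeded both control 5w and untreated without overlap, and EMPA + PFD replicate 1 had 1 count where replicates 2 and 3 had over 20. Control 9w was called higher than control 5w (log2 fold change 2.21, standard error 0.78, edgeR adjusted p = 0.0406), and the call was lost when each of control 5w replicates 1, 2 and 3 and control 9w replicates 1 and 2 was left out in turn (edgeR adjusted p from 0.08 to 0.109). The disease effects of the 2 weeks differed (log2 fold change −3.98, standard error 1.11, edgeR adjusted p = 0.0225), which was lost when each of control 9w replicate 2 and untreated replicates 1 and 3 was left out in turn (edgeR adjusted p from 0.0527 to 0.0539). With HFpEF replicate 2 as the only HFpEF library this difference was −2.30 and not called (edgeR adjusted p = 0.273). Its gene overlaps Bcl9l, so its counts are uncertain, as are those of Cxcr6 (over Fyco1) and Cxcl16 (over Zmynd15). The same holds for Ccl1, Ccl6, Cx3cr1 and Xcr1, which also overlap another gene. Xcr1, the Xcl1 receptor of cross-presenting dendritic cells, had 6, 66 and 34 counts in control 5w, 70, 17 and 19 in HFpEF, 7, 4 and 5 in control 9w, 16, 18 and 8 in untreated, 20 and 7 with EMPA, 12 and 17 with PFD and 19, 12 and 11 with EMPA + PFD. Control 5w replicate 1 was as low as control 9w, and replicate 2 and HFpEF replicate 1 were the highest of the 19. It was lower in control 9w (log2 fold change −2.23, standard error 0.72, edgeR adjusted p = 0.0268), with a log2 fold change of −1.46 without control 5w replicate 2, and the call was lost when each of control 5w replicates 2 and 3 and control 9w replicates 1, 2 and 3 was left out in turn (edgeR adjusted p from 0.0518 to 0.152) and in a fit to the compared groups alone, where the gene did not pass the filter. Without both libraries high in atrial genes it was not called (edgeR adjusted p = 0.0796). Of 5 tested dendritic cell markers only Clec9a was called between the controls, in the other direction (log2 fold change 1.54, standard error 0.29, edgeR adjusted p = 0.00161), with 136, 192 and 185 counts in control 5w and 316, 501 and 269 in control 9w. The summed level of the 5 overlapped between the controls. Cxcr2, the receptor of Cxcl1 and Cxcl2, had 0 to 23 counts and was not called.

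**Figure D3:**
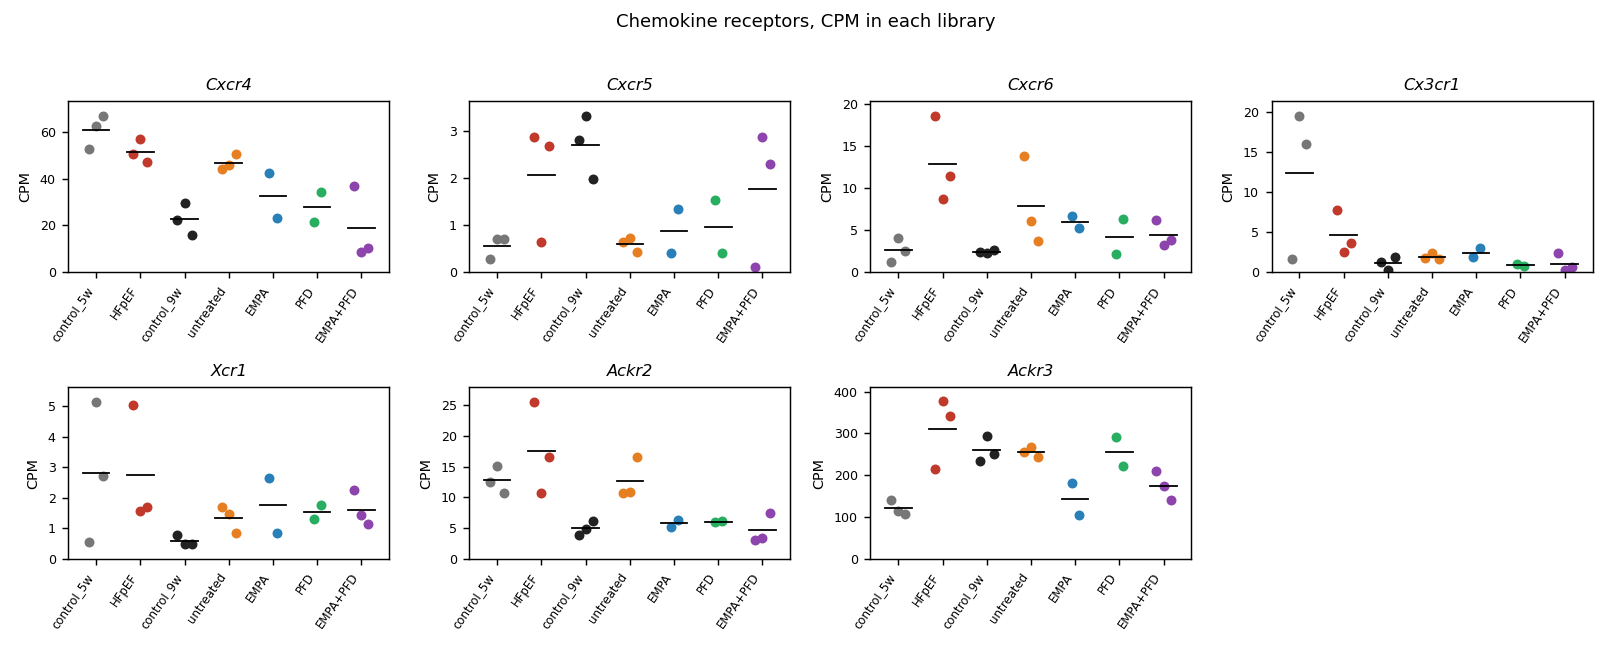
CPM of 7 chemokine receptors in each library by group; points are libraries and bars are group means over 3 libraries (2 for EMPA and PFD), on linear axes from 0. Cx3cr1 is above 15 CPM only in control 5w replicates 2 and 3, and Ackr3 is higher in all 3 HFpEF libraries than in any control 5w library.

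The atypical receptors were Ackr3, which takes up Cxcl12 and Cxcl11, and Ackr2, which takes up inflammatory CC chemokines. Ackr3 was at 141, 115 and 107 CPM in control 5w and at 214, 377 and 342 CPM in HFpEF. In control 9w Ackr3 was at 233, 293 and 251 CPM and in untreated at 255, 268 and 244 CPM, with 181 and 106 CPM with EMPA, 291 and 221 CPM with PFD and 210.1, 174 and 142 CPM with EMPA + PFD. HFpEF and control 9w both lay above control 5w (log2 fold change 1.36, standard error 0.23, edgeR adjusted p = 0.00227 for HFpEF; log2 fold change 1.10, standard error 0.23, edgeR adjusted p = 0.00302 for control 9w), and both calls held with each library left out in turn. Untreated and control 9w overlapped (log2 fold change −0.02, standard error 0.23, edgeR adjusted p = 0.981), and the disease effects of the weeks differed (log2 fold change −1.38, standard error 0.33, edgeR adjusted p = 0.0112). Ackr2 was at 12.5, 15.1 and 10.7 CPM in control 5w and at 25.5, 10.7 and 16.5 CPM in HFpEF. Ackr2 was at 3.83, 4.92 and 6.08 CPM in the week 9 controls and at 10.8, 10.8 and 16.6 CPM in untreated, with 5.19 and 6.32 CPM with EMPA, 5.92 and 6.17 CPM with PFD and 3.08, 3.35 and 7.52 CPM with EMPA + PFD. Untreated lay above every library of the other week 9 groups. Ackr2 was lower in control 9w than in control 5w (log2 fold change −1.37, standard error 0.36, edgeR adjusted p = 0.00931) and lower with EMPA + PFD than in untreated (log2 fold change −1.44, standard error 0.36, edgeR adjusted p = 0.0245), the second call being lost when each of untreated replicates 2 and 3 and EMPA + PFD replicates 1 and 2 was left out in turn (edgeR adjusted p from 0.0501 to 0.118) and in a fit to the compared groups alone (edgeR adjusted p = 0.109). Untreated against control 9w was called by DESeq2 and not by edgeR (log2 fold change 1.36, standard error 0.36, edgeR adjusted p = 0.0611). EMPA and PFD alone had log2 fold changes of −1.14 and −1.07 against untreated, and neither was called.

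The 11 members that did not pass the filter had few counts. Ccl17 had 0 to 13, Ccl11 (eotaxin) 1 to 10, Ccr3 0 to 16, Ccr4 0 to 6, Ccr9 0 to 5 and Ccl26 0 to 4. Ccl25, Ccl28, Cxcl3 and Cxcl6 had at most 2 counts in any library, and Cxcr1 had 0 in all 19, under a floor of 3 counts (0.215 to 0.400 CPM over the libraries). At this depth a level under that floor was not detectable. Such floors and the counting intervals above cover counting error only.

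**Figure D4:**
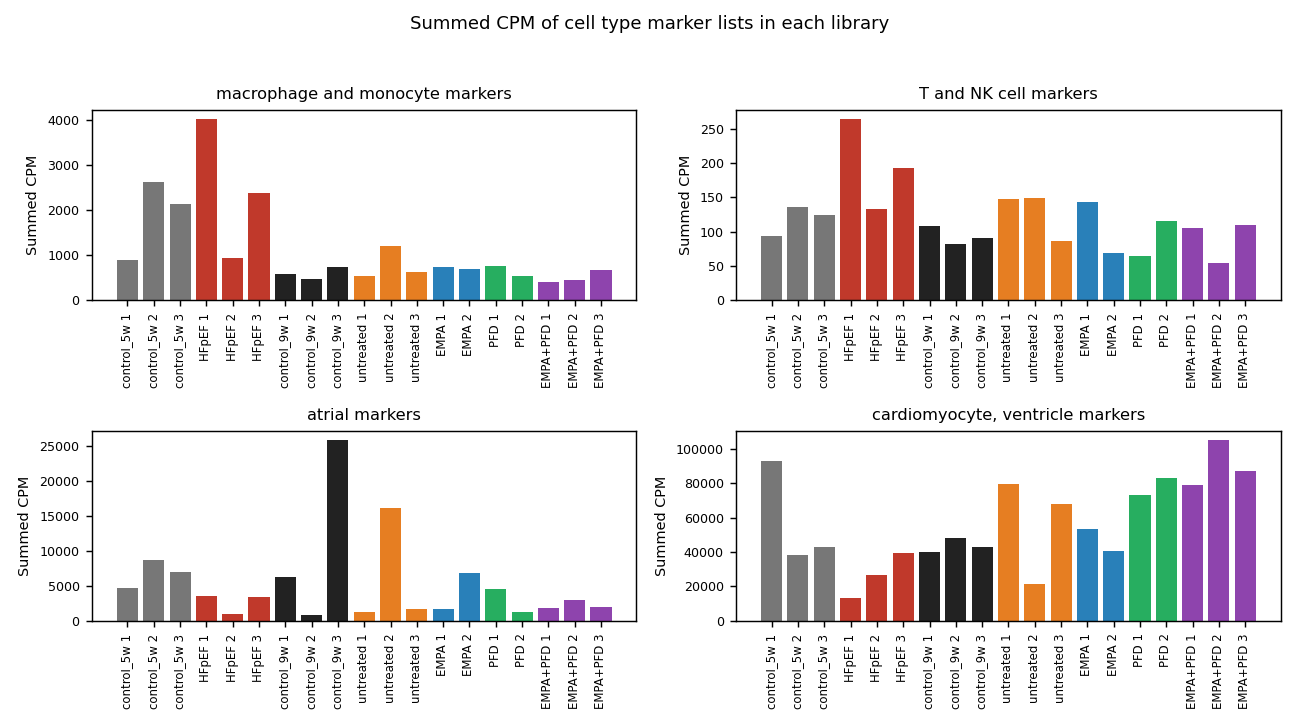
Summed CPM of 4 marker lists in each of the 19 libraries, colored by group, on linear axes from 0. HFpEF replicate 1 has the highest bar for macrophage and monocyte and for T and NK cell markers, and control 9w replicate 3 and untreated replicate 2 have the highest for atrial markers.

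Genes that work with chemokines were counted in 4 comparisons, HFpEF against control 5w, untreated against control 9w, control 9w against control 5w and EMPA + PFD against untreated, in which 8.69%, 0.912%, 14.7% and 3.82% of all genes were called. For each list the pair with the smallest p in EMPA + PFD against untreated is named with its log2 fold change there. Of 17 tested leukocyte adhesion partners, Vcam1 was called higher in HFpEF, none was called in untreated against control 9w, and 5 were higher and 4 lower in control 9w against control 5w. Icam1, a ligand of leukocyte integrins, was called lower with EMPA + PFD and was the only one: Icam1 (−1.32, standard error 0.24, edgeR adjusted p = 0.00934), beside F11r (−0.72, standard error 0.19, edgeR adjusted p = 0.0274). Of 15 tested genes of chemokine processing and presentation, the sheddase of fractalkine Adam17 was lower with EMPA + PFD, 4 were lower in control 9w (Cd74, Mmp2, Mmp14 and Sdc2), and none was called in the 2 disease comparisons. The pair was Adam17 (−1.09, standard error 0.16, edgeR adjusted p = 0.00482) and Sdc3 (−0.53, standard error 0.15, edgeR adjusted p = 0.0414). Of 7 tested chemokine-inducing cytokines, Il33 was higher in HFpEF, Ifng, Il1a and Il33 were higher in control 9w, and Csf1 was lower with EMPA + PFD; the pair was Csf1 (−1.22, standard error 0.20, edgeR adjusted p = 0.00677) and Tgfb1 (−0.89, standard error 0.18, edgeR adjusted p = 0.0127). Il1a had 2, 0 and 10 counts in control 5w and 150, 1 and 331 in control 9w, so that only replicates 1 and 3, which were higher in Sln, stood above control 5w.

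Of 15 tested genes of the NF-kB pathway, Nfkbia and Nfkbiz, which encode proteins of the I kappa B family, were higher in HFpEF. Nfkbia was lower in untreated than in control 9w, Nfkbia was higher and Nfkbie lower in control 9w against control 5w, and Bcl3 was lower with EMPA + PFD. The pair was Bcl3 (−1.31, standard error 0.25, edgeR adjusted p = 0.0107) and Rela (−0.33, standard error 0.10, edgeR adjusted p = 0.051). Of 12 genes of receptor desensitization, Rgs1 and Rgs16 were higher in HFpEF, Rgs2 was lower in control 9w, and none was called in untreated against control 9w or with EMPA + PFD; the pair was Grk6 (−0.65, standard error 0.13, edgeR adjusted p = 0.0127) and Grk5 (−0.47, standard error 0.15, edgeR adjusted p = 0.0481). Of 46 genes of signaling below the receptors, Ptk2b and Pxn were higher in HFpEF, Gnai3 was lower in untreated, 2 were higher and 6 lower in control 9w, and none was called with EMPA + PFD; named here is Rock2 (0.95, standard error 0.24, edgeR adjusted p = 0.0261). Of all genes 4.28% were called higher in HFpEF, and 7.46% higher and 7.21% lower in control 9w. Of 6 tested chemokines and receptors with other symbols none was called in these 4 comparisons, Ccrl2 was higher in EMPA + PFD against control 9w, and the pair was Rarres2 (−0.61, standard error 0.23, edgeR adjusted p = 0.0915) and Cmklr1 (−0.45, standard error 0.26, edgeR adjusted p = 0.239). Counts of calls by DESeq2 were not made for these lists.

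Many of these genes lie side by side. In the gene table of the GRCr8 assembly, used for names and order only, 29 of the 53 have another of them as an adjacent protein-coding gene, and 18 overlap another gene. Ccl2, Ccl7, Ccl11, Ccl12 and Ccl1 follow each other, as do Ccl5, Ccl9, Ccl6, Ccl3 and Ccl4. Within the first run Ccl2 and Ccl12 were lower and Ccl1 was not called in control 9w against control 5w, and within the second Ccl5 was higher and Ccl6 lower. Ccl17, Cx3cl1 and Ccl22 also follow each other, and of these Cx3cl1 was lower with EMPA + PFD and Ccl22 was not called (log2 fold change −0.05, standard error 0.44, edgeR adjusted p = 0.946). Counts of close relatives within a run may share reads, which was not tested.

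Promoters were searched because 10 of these genes were higher together in HFpEF. RefSeq promoter sequences on GRCr8, 250 bases before to 50 after the gene start, were found for 41 of the 53 genes by symbol. A kappa B-like motif (GGGA, any 4 bases, CC, on either strand) was in 16 of the 41 (39.0%) and in 19.3% of all 33469 promoters. An interferon response motif (GAAA, any 2 bases, GAAA, on either strand) was in 2 (4.88%) and in 3.92% of all, and a gamma-activated motif (TTC, any 3 bases, GAA) was in 6 (14.6%) and in 8.87% of all. Of the 10 genes higher in HFpEF 8 had a sequence and 4 held the kappa B-like motif, Ccl19, Cxcl1, Cxcl2 and Cxcr6, beside 16 of the 41. Of the genes lower in control 9w than in control 5w 8 had a sequence and 2 held it, of those higher 3 had a sequence and none held it, and none of the 4 genes lower with EMPA + PFD held it. The 4 promoters with the motif are shown 5′ to 3′ with matches on either strand in capitals: Ccl19 at chr5:61761115-61761414 (minus strand, 1 match), Cxcl1 at chr14:17479272-17479571 (minus strand, 3 matches), Cxcl2 at chr14:17467206-17467505 (minus strand, 2 matches) and Cxcr6 at chr8:132314956-132315255 (plus strand, 1 match). Matches on opposite strands overlap in Cxcl1 and coincide in Cxcl2. A match describes letters only and is not a binding site.
Ccl19: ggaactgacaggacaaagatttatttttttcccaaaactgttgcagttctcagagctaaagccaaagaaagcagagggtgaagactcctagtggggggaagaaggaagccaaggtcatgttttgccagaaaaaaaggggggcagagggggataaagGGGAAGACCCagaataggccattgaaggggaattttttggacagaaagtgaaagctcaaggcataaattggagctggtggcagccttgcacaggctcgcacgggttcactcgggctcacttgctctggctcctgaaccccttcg
Cxcl1: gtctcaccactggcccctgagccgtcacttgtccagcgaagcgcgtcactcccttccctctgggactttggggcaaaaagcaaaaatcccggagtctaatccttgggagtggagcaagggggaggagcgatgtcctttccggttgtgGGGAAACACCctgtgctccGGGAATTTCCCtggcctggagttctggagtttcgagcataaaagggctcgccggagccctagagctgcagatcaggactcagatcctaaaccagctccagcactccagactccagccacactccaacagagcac
Cxcl2: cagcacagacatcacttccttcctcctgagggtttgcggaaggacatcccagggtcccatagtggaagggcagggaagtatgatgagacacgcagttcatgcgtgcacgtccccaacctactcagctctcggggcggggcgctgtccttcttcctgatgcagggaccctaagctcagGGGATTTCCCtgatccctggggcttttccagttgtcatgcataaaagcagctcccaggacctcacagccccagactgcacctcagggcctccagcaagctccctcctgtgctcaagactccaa
Cxcr6: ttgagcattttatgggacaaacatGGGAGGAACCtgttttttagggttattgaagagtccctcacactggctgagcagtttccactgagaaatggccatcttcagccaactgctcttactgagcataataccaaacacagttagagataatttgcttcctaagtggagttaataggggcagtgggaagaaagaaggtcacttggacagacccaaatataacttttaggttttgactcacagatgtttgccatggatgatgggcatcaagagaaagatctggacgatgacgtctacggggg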

How the data were processed

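Left ventricles were profiled by RNA sequencing in 19 libraries of 7 groups. Per the submitters' notes, the authors trimmed reads with Trim Galore, checked them with FastQC, aligned them to rn6 with HISAT2 and counted them per gene with HTSeq before the counts were deposited; versions are not given in the sources used here. From these counts, CPM were computed with edgeR 4.0.16 in R 4.3.3 after TMM scaling. Genes that passed filterByExpr were tested in 1 model of 7 groups by quasi-likelihood, with Benjamini-Hochberg adjustment, and again with DESeq2 1.42.0. The common biological coefficient of variation was 0.257. Standard errors are the absolute log2 fold change over the square root of F. Library totals ran from 7430539 to 13017754 counts. Alternatives were RLE scaling, another filter, DESeq2, adjusted p alone, the compared groups alone, a replicate block, 1 HFpEF library, and each library left out. In simulated counts with 200 changed genes, edgeR called 200 of them and 5 others, and DESeq2 199 and 7. Whether such recovery holds for the real libraries was not tested. Of the 40 calls of single members, 21 were lost with at least 1 of the 19 libraries left out. Values in each library are given for members called in any pairwise comparison or interaction, the 5 with the highest mean CPM, and those with an adjusted p under 0.05 over the 7 groups; other members are given by ranges. Of each list of working partners the 2 genes with the smallest adjusted p for EMPA + PFD against untreated are named; other list genes were named after their values were seen. Some items are not reported here. Members and lists were chosen with earlier results of these data known.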

Additional observations from a re-analysis of the deposited data

Results flagged for a closer look

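For 5 genes the difference between diseased and control hearts at week 9 was not that of week 5: the log2 fold change of untreated against control 9w minus that of HFpEF against control 5w was called. The genes were Ackr3 (log2 difference −1.38, standard error 0.33, edgeR adjusted p = 0.0112), Ccl21 (log2 difference −3.67, standard error 0.95, edgeR adjusted p = 0.0163), Ccl5 (log2 difference −2.49, standard error 0.60, edgeR adjusted p = 0.0121) and Cxcr5 (log2 difference −3.98, standard error 1.11, edgeR adjusted p = 0.0225), with the smaller or opposite difference at week 9. The other was Cxcl11 (log2 difference 2.76, standard error 0.88, edgeR adjusted p = 0.0387), which was below the controls at week 5 and above them at week 9 in 2 of 3 libraries. These were 5 of 42, and 12% of all genes were called as well. Ccl21, Cxcl11 and Cxcr5 were not called with HFpEF replicate 2 as the only HFpEF library. The week 9 diseased hearts had also received phosphate-buffered saline by gavage, and no untreated library had Y-linked counts. Cell type markers were called in this contrast as well. Lower were 5 of 10 endothelial (Cldn5, Egfl7, Emcn, Esam and Pecam1), 3 of 4 platelet (Gp1ba, Gp9 and Treml1), 3 of 4 erythroid (Alas2, Hbb and Hbb-bs) and 3 of 16 T and NK cell markers (Cd2, Klrd1 and Ncr1). Of the lymphatic markers 3 of 4 were called (Flt4, Prox1 and Reln), 2 lower and 1 higher, and 3 of 10 ventricular cardiomyocyte markers were higher (Actc1, Ckm and Ryr2). Also lower were 2 of 3 mesothelial markers (Msln and Wt1), Gfra3 (Schwann cell) and Clec9a (dendritic cell). The same held for Prg2 (eosinophil and mast cell) and Lyve1 (macrophage and monocyte), while Rgs5 (smooth muscle and pericyte) was higher. The cause of these differences, and the part of the cell types in them, was not tested.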

How the results depend on the processing

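None of the 40 calls of single members changed direction in an alternative that tested the gene; 5 of the 40 were filtered out in the compared groups alone. RLE scaling moved the median log2 fold change by at most 0.023 and changed the sign of no called member. The counts of called members stayed within 1.5 times under RLE scaling, the wider filter and adjusted p alone.

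For HFpEF against control 5w (11 members called) the count was 4 in a fit to the compared groups alone and 4 with only the HFpEF library that had Y-linked counts; with 1 library left out it ran from 5 to 12. For untreated against control 9w (1 called) it was 6 by DESeq2, 2 in the compared groups alone, 2 without both libraries high in atrial genes, and 0 to 3 with 1 left out. For untreated against HFpEF (0) it was 5 by DESeq2, 4 without the atrial-high libraries, and 0 to 4. For EMPA + PFD against untreated (4) it was 8 by DESeq2, 0 in the compared groups alone, 1 without the atrial-high libraries, and 0 to 8. For the difference between weeks (5) it was 3 with 1 HFpEF library, and 3 to 6. Leaving out 1 library gave 10 to 17 for control 9w against control 5w (15), 3 to 6 for EMPA + PFD against control 9w (4), 17 to 23 over all groups (21), and 0 throughout for EMPA, PFD and their interaction. Leaving out both atrial-high libraries was chosen after seeing the data. The cause of each change was not tested.

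Of all genes, adjusted p alone called 2478 in place of 1076 in HFpEF, 220 in place of 113 in untreated against control 9w, 4276 in place of 1817 between the controls, 1501 in place of 473 for EMPA + PFD against untreated, 4181 in place of 1495 for EMPA + PFD against control 9w, and 2473 in place of 1489 for the difference between weeks. DESeq2 called 298, 441, 715, 51, 4 and 38 where edgeR called 113 (untreated against control 9w), 24 (against HFpEF), 473 (EMPA + PFD), 5 (EMPA), 1 (PFD) and 1 (interaction). The compared groups alone gave 460 in HFpEF, 1 in untreated against HFpEF, 5 for EMPA + PFD and 0 for PFD. Without the atrial-high libraries the counts were 381 in untreated against control 9w, 830 against HFpEF, 82 for EMPA + PFD, 0 for PFD and 2301 for the difference between weeks. Untreated against HFpEF gave 9 with 1 HFpEF library. With 1 library left out the counts of all genes ran from 730.0 to 1228 in HFpEF, 7 to 413 in untreated against control 9w, 1206 to 2025 between the controls, 4 to 933 in untreated against HFpEF, 59 to 910.0 for EMPA + PFD against untreated, 4 to 15 for EMPA, 0 to 2 for PFD, 973 to 1578 for EMPA + PFD against control 9w, 877 to 2241 for the difference between weeks, 1 to 10 for the interaction and 4727 to 6904 over all groups. The wider filter gave 2 for PFD and 3 for the interaction, where RLE scaling gave 2.

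Replicate numbers do not pair the libraries: deviations of same-numbered libraries correlated from −0.53 to 0.49. With a replicate block the members called were 9 in HFpEF, 1 in untreated against control 9w, 13 between the controls, 0 in untreated against HFpEF, 4 for EMPA + PFD against untreated, 0 for EMPA, 0 for PFD, 4 for EMPA + PFD against control 9w, 4 for the difference between weeks, 0 for the interaction and 18 over all groups. Of all genes the block gave 62 in untreated against control 9w, 8 against HFpEF, 1 for EMPA and 0 for PFD.

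The groups held 2 or 3 libraries each. Counting intervals leave out differences between animals.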
